A study of Mus musculus with 6 samples.

Results

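Amino acid transporters carry the amino acids that an activated T cell needs for protein synthesis and for growth signalling across its plasma membrane. The 9 genes followed here were chosen by symbol, and all 9 are among the 47643 reference genes of the deposited tables. They are Slc7a5, Slc3a2, Slc7a6, Slc7a11, Slc1a5, Slc1a4, Slc38a1, Slc38a2 and Slc7a1. Levels are FPKM, fragment numbers scaled to transcript length and library size. Genes were tested if 3 libraries or more reached 1 FPKM, as did 7 of the 9 and 12186 reference genes in all. Slc1a4 and Slc7a11 did not and are described by their levels.

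The cells were natural regulatory T cells (nTregs) from the spleens of C57BL/6 mice carrying Foxp3-DTR/EGFP, in which the Foxp3 locus marks regulatory T cells with EGFP and a diphtheria toxin receptor. All of them spent 2 days in culture with IL-2 and with antibodies to CD3 (fixed to the plate) and CD28 (in solution). Each group then had 6 h with DMSO vehicle or with an EP4 agonist at 100 nM, before GFP-positive cells were sorted. EP4 binds prostaglandin E2 and signals through cyclic AMP. Each group has 3 libraries with replicate numbers 1 to 3. Neither the name of the agonist nor the age of the mice is given in the labels, and whether a replicate is a mouse, a culture or an aliquot is not stated. The p-values therefore rest on a spread between libraries that may be technical.

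LAT1, the product of Slc7a5, y+LAT2, the product of Slc7a6, and xCT, the product of Slc7a11, are the transporting light chains of heteromers. Each is joined by a disulfide bond to the heavy chain CD98, the product of Slc3a2, which brings it to the cell surface. LAT1 takes up leucine and other large neutral amino acids, y+LAT2 exchanges cationic for neutral amino acids, and xCT imports cystine in exchange for glutamate. ASCT2 (Slc1a5) exchanges glutamine and other small neutral amino acids, and ASCT1 (Slc1a4) exchanges alanine, serine and cysteine. SNAT1 (Slc38a1) and SNAT2 (Slc38a2) import glutamine and alanine with sodium, and CAT1 (Slc7a1) imports arginine and lysine. In T cells this set is best known for its increase on activation through the antigen receptor, and several of the genes respond elsewhere to amino acid shortage through the transcription factor ATF4.

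The promoters of Slc7a11 and Slc1a4 are printed because these were the members with almost no transcript, and because they held the letters of the C/EBP-ATF response element, the type of site at which ATF4 binds. RefSeq promoters (GRCm38.p6, 250 bases before the start and 50 from it) were found for 6 of the 9 genes; Slc7a5, Slc1a5 and Slc38a1 had none in the table. The stretches below run 5′ to 3′ from 110 bases before the start to 10 bases from it, on the minus strand, with the response element in capitals. They lie at chr3:50443604-50443723 for Slc7a11 and chr11:20332704-20332823 for Slc1a4.
Slc7a11: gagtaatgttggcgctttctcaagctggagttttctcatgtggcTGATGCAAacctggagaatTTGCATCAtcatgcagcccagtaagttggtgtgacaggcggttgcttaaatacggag
Slc1a4: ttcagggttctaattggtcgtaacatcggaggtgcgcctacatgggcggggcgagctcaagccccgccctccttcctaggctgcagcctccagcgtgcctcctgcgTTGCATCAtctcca

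Both strands of the 300 bases of each promoter were searched for 4 motifs. These were TGATGNAA for the C/EBP-ATF response element, TGACGTCA for the cyclic AMP response element, CACGTG for the E-box bound by MYC, and TGACNNNGC for the antioxidant response element bound by NRF2. Slc7a11 held 2 copies of the first, at positions -66 to -59 and -47 to -40 from the start, where position 1 is the first transcribed base. The Slc1a4 copy spanned the start, at -4 to 4. Of all 32851 promoters in the table, 3.97% held this motif and 0.0700% held 2 or more copies. The other 4 genes with a promoter (Slc7a1, Slc7a6, Slc38a2 and Slc3a2) had no such match. The 6 genes had 8 promoters between them, as a gene can have more than 1 start. The antioxidant motif matched in Slc38a2 and in the Slc7a1 promoter starting at 148399904, but not in that starting at 148392815. It also matched in the overlapping Slc7a6 promoters starting at 106168854 and 106168921, where it was the same site. Of all promoters 12.4% held it, a share per promoter and not per gene. The cyclic AMP motif (1.79% of all promoters) and the E-box (7.15%) matched in none of the 6 genes, and the matches found did not overlap another of the 4 motifs. A match or its lack describes these letters only.

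After 6 h of EP4 agonist the transporters fell into 3 patterns. The mean FPKM of Slc7a5 differed by -39.6% from vehicle, and those of Slc1a5, Slc7a6 and Slc7a1 by -20.1%, -19.7% and -18.9%. Each of these 4 was lower in all 3 pairs of libraries with the same replicate number. For Slc3a2, Slc38a1 and Slc38a2 the difference was smaller than the replicate spread, and Slc1a4 and Slc7a11 were near 0 FPKM in every library. In bulk RNA, fewer cells of a type and less RNA per cell cannot be told apart.

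Whether the 4 lower genes passed the test turned on the replicate number. Without it in the model, limma called 0 of the 7 tested genes. Of all 12186 tested genes 0.394% were called in that fit, 42 that rose and 6 that fell. An unadjusted p under 0.05 was found for 3 of the 7 and for 1701 of all tested genes (limma). With the replicate number as a block, the same 7 gave 4 that fell and 0 that rose. In that fit 781 of all tested genes fell (6.41%) and 498 rose, and 10.5% changed in either direction. The median log2 difference, agonist minus vehicle, of FPKM + 1 was -0.28 over the 7 genes and -0.03 over all tested genes. In both fits most calls were lost when some libraries were left out. The unblocked fit called 0 genes when replicate 2 or 3 of vehicle or replicate 2 of the agonist was left out (limma, where 1033, 1115 and 1606 had an unadjusted p under 0.05), so its calls in the gene lists further on were lost there. Over all genes, 241 passed without pair 1, 0 without pair 2 and 1 without pair 3, in the blocked fit. Among the transporters only Slc7a5 passed without pair 1, and none did without pair 2 or pair 3 (limma, 0 called). In these last 2 fits 4 and 4 transporters had an unadjusted p under 0.05, as had 2557 and 2431 of all tested genes.

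**Figure D1:**
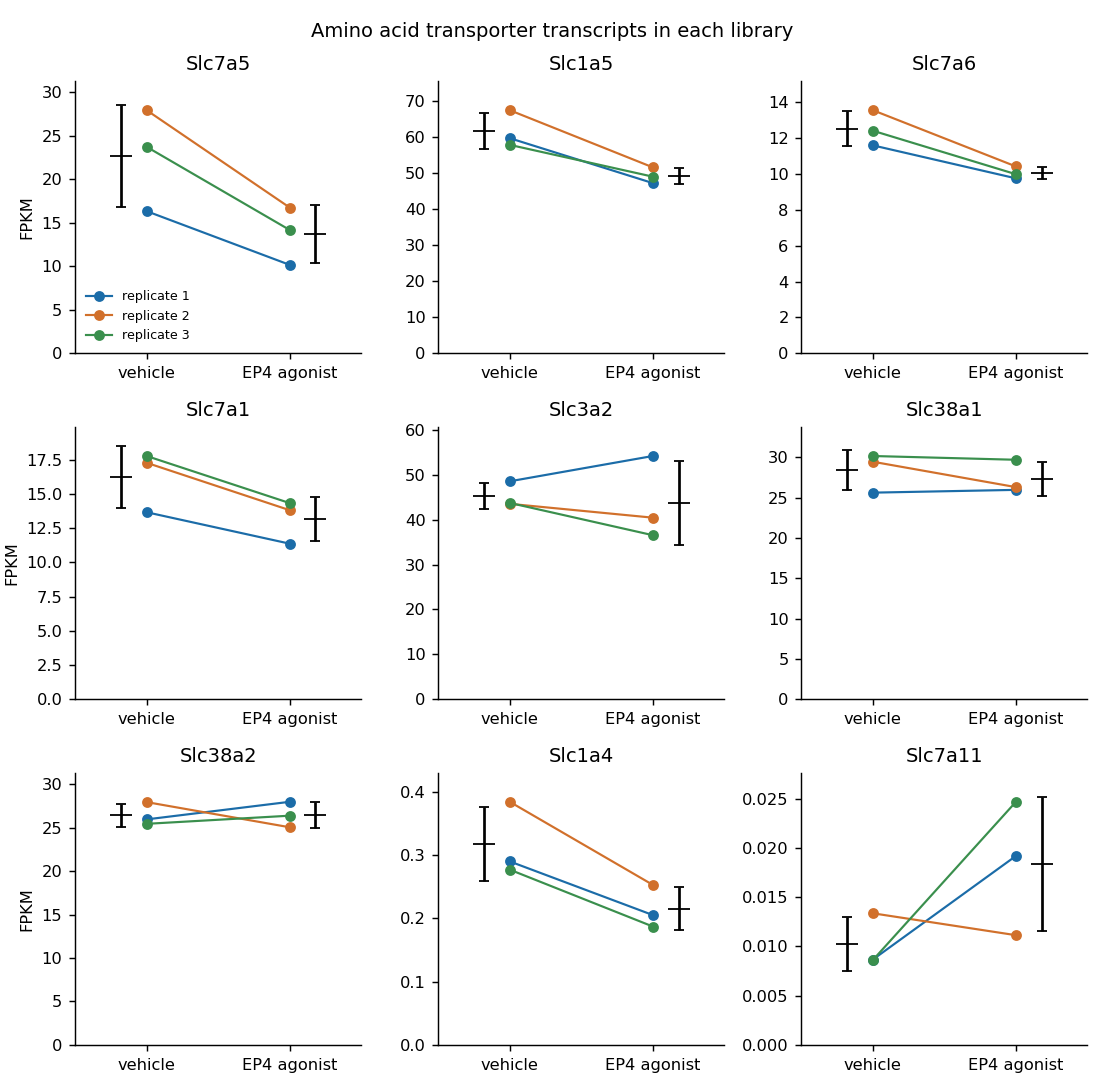
FPKM of the 9 transporter genes in each library, with lines joining vehicle and agonist libraries of the same replicate number and black marks for the mean ± SD of 3 libraries; the vertical scale differs by gene. All 3 lines run downward for Slc7a5, Slc1a5, Slc7a6, Slc7a1 and Slc1a4, and run in both directions for the other 4 genes.

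Slc7a5 (ENSMUSG00000040010.10, chromosome 8, 121881150 to 121907694, minus strand, mm10) encodes LAT1, the main leucine transporter of activated T cells. Its FPKM was 16.3, 27.9 and 23.7 in vehicle replicates 1, 2 and 3 and 10.2, 16.7 and 14.2 in the agonist libraries of the same numbers. Replicate 1 was lowest and replicate 2 highest in both groups, and the groups overlapped because vehicle replicate 1 lay below agonist replicate 2. Within pairs the log2 difference was -0.63, -0.71 and -0.70, a narrower range than that among the libraries of either group. The log2 fold change was -0.68 with a standard error of 0.23 and an adjusted p of 0.270 in limma without the block, and the standard error was 0.05 and the adjusted p 0.0142 with it. Among all 12186 tested genes, 70 had a lower log2 fold change.

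A gene model on the other strand spans the whole Slc7a5 locus. This is Gm20388 (chromosome 8, 119910841 to 124345722, plus strand), at 20.3, 20.2 and 21.8 FPKM with vehicle and 24.7, 25.6 and 25.5 FPKM with the agonist. Its agonist values were all above its vehicle values, opposite in direction to Slc7a5. The kit marks strand, but the strand setting used in quantification is a detail not given in the sources used here, and the part of Gm20388 in the Slc7a5 values was not tested.

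Slc7a6 (ENSMUSG00000031904.4, chromosome 8, 106168875 to 106198704) encodes y+LAT2, another light chain that pairs with CD98. It had 11.6, 13.5 and 12.4 FPKM with vehicle and 9.75, 10.4 and 9.98 FPKM with the agonist. Every agonist value lay below every vehicle value. The log2 fold change was -0.29 and its standard error 0.08 (limma, adjusted p = 0.213, or 0.0395 in the blocked fit). Quantile normalization together with the block gave 0.0492 as the adjusted p.

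Slc1a5 (ENSMUSG00000001918.17, chromosome 7, 16781340 to 16798274, plus strand) encodes ASCT2, a major route of glutamine into T cells, and had the highest level of the 9 genes. Vehicle libraries held 59.7, 67.4 and 57.8 FPKM and agonist libraries 47.2, 51.6 and 48.9996 FPKM. Here too the groups did not overlap, which together with Slc7a6 made 2 of the 7 tested genes with agonist values wholly below vehicle values. Over all tested genes that share was 12.1%. Its log2 fold change was -0.32 and its standard error 0.09 (limma, adjusted p = 0.190, or 0.0295 in the blocked fit).

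Slc7a1 (ENSMUSG00000041313.14, chromosome 5, 148327410 to 148399904) encodes the arginine and lysine transporter CAT1. Its levels were 13.7, 17.3 and 17.8 FPKM with vehicle and 11.4, 13.8 and 14.3 FPKM with the agonist. As for Slc7a5, replicate 1 was the lowest of both groups, and vehicle replicate 1 lay among the agonist values. The log2 fold change was -0.28 and its standard error 0.13 (limma, adjusted p = 0.391, or 0.0340 in the blocked fit). Agonist values below their paired vehicle values in all 3 pairs were found for 4 of the 7 tested transporters and for 31.6% of all tested genes.

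**Figure D2:**
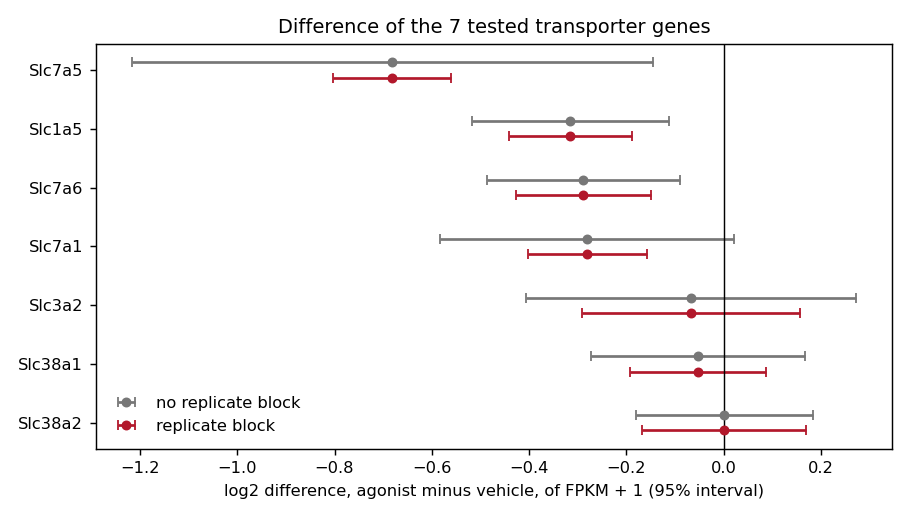
Log2 difference, agonist minus vehicle, of FPKM + 1 for the 7 tested transporter genes with its 95% interval from limma, without (grey) and with (red) the replicate number as a block. With the block the intervals of Slc7a5, Slc1a5, Slc7a6 and Slc7a1 lie below 0, and those of Slc3a2, Slc38a1 and Slc38a2 include 0.

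Slc3a2 (ENSMUSG00000010095.13, chromosome 19, 8706882 to 8723369) encodes CD98, the shared heavy chain. It stood at 48.6, 43.5 and 43.7 FPKM with vehicle and 54.2, 40.5 and 36.6 FPKM with the agonist. Agonist replicate 1 was the highest of the 6 libraries and agonist replicate 3 the lowest, so the agonist group enclosed the vehicle group. The log2 fold change was -0.07, with a 95% interval from -0.41 to 0.27 (limma, adjusted p = 0.881, or 0.655 in the blocked fit). The interval with the block ran from -0.29 to 0.16.

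The sodium-coupled glutamine importers Slc38a1 (ENSMUSG00000023169.14, chromosome 15, 96571418 to 96642913) and Slc38a2 (ENSMUSG00000022462.6, 96687394 to 96699698 on the same chromosome and strand) are neighbours in the genome. Slc38a1 had 25.6, 29.5 and 30.2 FPKM with vehicle and 25.98, 26.3 and 29.7 FPKM with the agonist. Its log2 fold change was -0.05, with a 95% interval from -0.27 to 0.17 (limma, adjusted p = 0.847, or 0.561 in the blocked fit). Values of Slc38a2 were the most even of the set, at 25.9, 27.9 and 25.4 FPKM with vehicle and 28.0, 25.0 and 26.4 FPKM with the agonist. For Slc38a2 the 95% interval of the agonist to vehicle ratio, on the FPKM + 1 scale, ran from 0.882 to 1.13 (limma, adjusted p = 0.998, or 0.995 in the blocked fit).

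The members with almost no transcript were those whose promoters are printed above. Slc1a4 (ENSMUSG00000020142.12, chromosome 11, 20302180 to 20332713), encoding ASCT1, had 0.290, 0.384 and 0.277 FPKM with vehicle and 0.205, 0.253 and 0.187 FPKM with the agonist. Slc7a11 (ENSMUSG00000027737.10, chromosome 3, 49892526 to 50443614), encoding xCT, had 0.00867, 0.0134 and 0.00862 FPKM with vehicle and 0.0192, 0.0111 and 0.0247 FPKM with the agonist. The coverage of Slc7a11 was 0.0429, 0.0756 and 0.0387 reads per base with vehicle and 0.0363, 0.0482 and 0.0551 with the agonist, so the higher FPKM of agonist replicates 1 and 3 had no counterpart of that size in coverage. Fragment counts are not in the tables, so no counting interval can be given for these values, and no fold change is drawn from them. Atf4, which encodes ATF4, had 61.6, 73.5 and 60.1 FPKM with vehicle and 58.9, 65.3 and 60.3 FPKM with the agonist (limma, adjusted p = 0.780, or 0.391 in the blocked fit).

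In order of mean vehicle FPKM the genes ran Slc1a5 (61.6 ± 5.10, SD, n = 3), Slc3a2 (45.3 ± 2.84), Slc38a1 (28.4 ± 2.45), Slc38a2 (26.4 ± 1.32), Slc7a5 (22.7 ± 5.87), Slc7a1 (16.2 ± 2.25) and Slc7a6 (12.5 ± 0.984). Neighbours from Slc38a1 to Slc7a1 in this order overlapped in their vehicle values, whereas Slc1a5, Slc3a2 and Slc38a1 were separate from each other. With the agonist the means were 49.3 ± 2.20 for Slc1a5, 43.7 ± 9.28 for Slc3a2, 27.3 ± 2.07 for Slc38a1, 26.5 ± 1.47 for Slc38a2, 13.7 ± 3.32 for Slc7a5, 13.2 ± 1.59 for Slc7a1 and 10.0485 ± 0.337 for Slc7a6. Slc1a5 and Slc3a2 then overlapped, as did Slc7a5 with both Slc7a1 and Slc7a6, while Slc7a5 and Slc38a2 no longer did. The order depends on the column used, most of all for Slc3a2. By FPKM it was second to Slc1a5 over all 6 libraries, and by the deposited coverage, also a per-length value, it ranked 7 of 9. By coverage Slc38a2 also stood above Slc38a1, and Slc7a6 above Slc7a1. The coverage per FPKM of Slc3a2 was 0.151 to 0.155 of the value shared by 31.5 to 32.7% of the rows of each library. That fraction was 0.518 to 0.536 for Slc1a5 and 0.941 to 0.955 for Slc7a5. GENCODE M21 lists 9 transcripts of 239 to 2813 bases for Slc3a2 and 8 of 396 to 2807 bases for Slc1a5. It lists 7 of 359 to 3750 bases for Slc7a6, whose coverage per FPKM matched the shared value. Gene versions in M21 differ from the deposited ones for Slc38a1, Slc38a2 and Slc7a6. The part of these transcripts in the FPKM of Slc3a2 was not tested.

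The light chains that pair with CD98 were also summed. The sum of Slc7a5, Slc7a6 and Slc7a11 was 27.9, 41.5 and 36.1 FPKM with vehicle and 19.9, 27.2 and 24.2 FPKM with the agonist. Agonist values were below vehicle values in this sum, and lower in each of the 3 pairs. Slc7a5 made up 58.5%, 67.3% and 65.6% of the sum with vehicle and 51.0%, 61.6% and 58.6% with the agonist. The ratio of Slc3a2 to the summed light chains was 1.74, 1.05 and 1.21 with vehicle and 2.72, 1.49 and 1.51 with the agonist. That ratio was higher in all 3 pairs, yet the groups overlapped (exact permutation test, two-sided, p = 0.3, and 0.367 adjusted over 11 sums, shares and ratios; 3 against 3 libraries cannot go below 0.1). By coverage the same ratio was 0.276, 0.165 and 0.195 with vehicle and 0.433, 0.234 and 0.240 with the agonist, below 1 in every library, so whether the heavy chain exceeded its partners depended on the column. Without agonist replicate 1 the difference of the mean FPKM ratios was 0.168 in place of 0.574. The SLC38 sum, by contrast, was 51.6 to 57.4 FPKM with vehicle and 51.4 to 56.1 FPKM with the agonist.

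**Figure D3:**
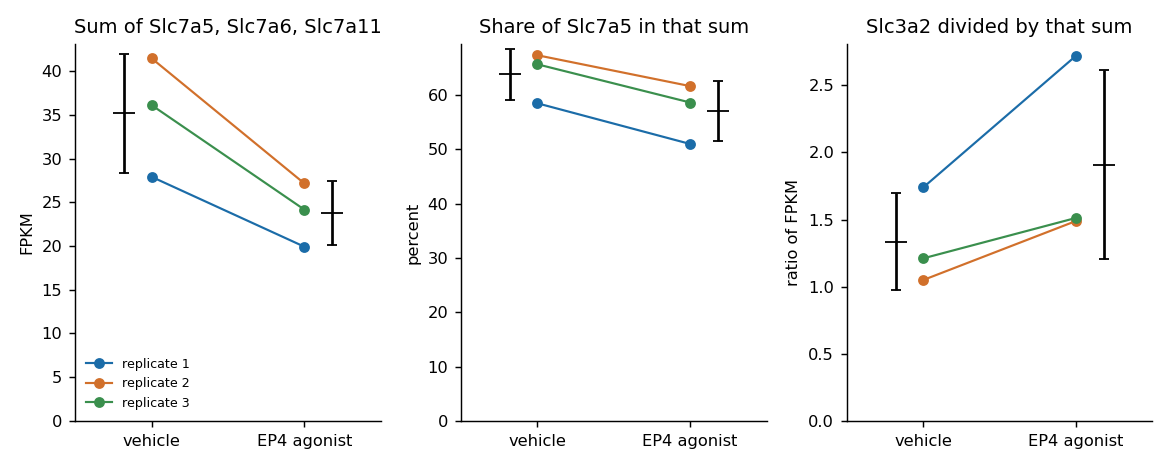
Summed FPKM of the light chains Slc7a5, Slc7a6 and Slc7a11 (left), the percent of that sum held by Slc7a5 (middle) and the FPKM of Slc3a2 divided by the sum (right) in each library, with lines joining the same replicate number and black marks for the mean ± SD of 3 libraries. In every pair the sum and the share of Slc7a5 were lower and the ratio higher with the agonist. All 3 quantities are computed from the Slc7a5 values, and the groups overlapped in the share and in the ratio.

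As a share of the FPKM of all reference genes, the 9 together made up 0.0468 to 0.0533% with vehicle and 0.0423 to 0.0443% with the agonist. Over the 6 libraries, log2(FPKM + 1) of Slc7a5 correlated with Slc7a1 at r = 0.949, with Slc7a6 at 0.932 and with Slc1a5 at 0.879, against 0.606 for Slc38a1, -0.138 for Slc38a2 and -0.331 for Slc3a2. The 5 tested genes most like Slc7a5 by this measure were Kars and Eprs, which encode aminoacyl-tRNA synthetases, the chaperonin subunit gene Cct5, the RNA methyltransferase gene Nsun2, and Ifrd2. Kars had 69.6, 87.6 and 81.9 FPKM with vehicle and 58.5, 71.0 and 66.4 FPKM with the agonist (r = 0.999). These correlations describe 6 libraries that share both the treatment difference and the replicate order, and Slc7a1, the nearest transporter, ranked 517 of 12185 genes.

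Other amino acid transporters of the plasma membrane were mostly silent. Of 36 such genes listed, 6 were tested, and 0 passed with or without the block (limma; median log2 difference 0.00 over the 6). The most abundant were Slc38a10, Slc6a6 and Slc43a2. Slc6a6, the taurine transporter gene, had 22.9, 18.2 and 20.9 FPKM with vehicle and 17.8, 17.99 and 13.9 FPKM with the agonist (limma, adjusted p = 0.343, or 0.142 in the blocked fit). Its groups did not overlap. Slc43a2, which encodes LAT4, a leucine transporter that works without CD98, had 12.8, 8.78 and 10.9 FPKM with vehicle and 9.94, 7.51 and 9.64 FPKM after agonist (limma, adjusted p = 0.547, or 0.0793 in the blocked fit). Slc38a10 had 30.0 ± 4.14 and 29.8 ± 1.13 FPKM.

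Carriers of lysosomes and mitochondria were a separate list. Of 17 tested genes, 0 passed in limma without the block (their median log2 difference was -0.05), and with it 1 rose and 2 fell. The blocked fit called 10.5% of all 12186 tested genes, 498 that rose and 781 that fell. Sfxn1, which encodes a mitochondrial serine transporter, fell with the block from 29.0 ± 7.27 to 21.7 ± 5.18 FPKM (adjusted p = 0.0191, and 0.494 without it). Slc25a22, a mitochondrial glutamate carrier gene, fell with the block from 10.3 ± 0.972 to 7.92 ± 0.467 FPKM, and the lysosomal histidine and peptide transporter gene Slc15a3 rose with it from 2.34 ± 1.24 to 4.40 ± 1.95 FPKM. Sfxn3, a relative of Sfxn1, had 16.7 ± 1.76 and 15.9 ± 1.83 FPKM (limma, adjusted p = 0.838).

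Amino acid sensing upstream of mTORC1, the growth kinase complex that leucine and arginine activate, was represented by 36 tested genes. Without the block 0 passed (limma, median log2 difference -0.02), and with it 2 rose and 0 fell. In the blocked fit 498 of all 12186 tested genes rose and 781 fell. Gatsl2, now named Castor2 and a relative of the arginine sensor gene Castor1, had 10.8, 7.74 and 8.33 FPKM with vehicle and 19.0, 15.5 and 18.5 FPKM with the agonist (limma, adjusted p = 0.0523, or 0.0165 in the blocked fit). All 3 agonist values lay above the vehicle values. Sesn3, encoding a sestrin, rose with the block from 14.5 ± 3.39 to 18.7 ± 3.16 FPKM (adjusted p = 0.0301). The most abundant genes of the list were Sec13, Lamtor2 and Lamtor1, with 62.9 ± 1.91, 52.4 ± 6.28 and 51.7 ± 3.03 FPKM in vehicle libraries, and none of these passed (limma, adjusted p of 0.613, 0.634 and 0.420).

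Factors known to act on transporter genes gave 1 riser among 14 tested, Hif1a, with and without the block (median log2 difference 0.01). Of all tested genes, 10.5% were called with the block (498 rose and 781 fell) and 0.394% without it (42 rose and 6 fell). Hif1a encodes the oxygen-regulated subunit of HIF-1 and had 77.2, 71.9 and 71.8 FPKM with vehicle and 103.7, 107.2 and 117.9 FPKM with the agonist (limma, adjusted p = 0.0498, or 0.0208 in the blocked fit). Myc, whose product drives transporter genes in activated T cells, had 51.0, 77.8 and 71.2 FPKM with vehicle and 46.9, 57.2 and 65.5 FPKM with the agonist (limma, adjusted p = 0.625, or 0.140 in the blocked fit). It was lower in every pair, the groups overlapped, and replicate 1 was lowest in both groups, as for Slc7a5 and Slc7a1.

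Enzymes that use the carried amino acids split in both directions. Of 23 tested, 3 rose and 0 fell in limma without the block, and 6 rose and 6 fell with it (median log2 difference -0.11). Over all tested genes 0.394% were called without the block (42 rose and 6 fell) and 10.5% with it (498 rose and 781 fell). The 3 that rose without the block were Got1, the cytosolic aspartate aminotransferase, Gls2, a glutaminase, and Aldh18a1, which begins proline synthesis from glutamate. Got1 rose from 23.6 ± 2.58 to 61.1 ± 7.10 FPKM (limma, adjusted p = 0.0154) and Aldh18a1 from 43.6 ± 0.679 to 66.5 ± 3.43 FPKM (adjusted p = 0.0267). Gls2 had 1.65, 1.10 and 1.45 FPKM with vehicle and 4.71, 5.42 and 4.44 FPKM after the agonist (limma, adjusted p = 0.0165). Odc1, which turns ornithine into the polyamine putrescine, rose with the block from 147 ± 21.9 to 239 ± 39.3 FPKM (adjusted p = 0.0142, and 0.133 without it). Phgdh, the first enzyme of serine synthesis, fell with the block from 137 ± 11.5 to 108 ± 15.1 FPKM (adjusted p = 0.0273, and 0.289 without it). Shmt2, Shmt1, Bcat1, Gclm and Psat1 also fell with the block, and Glud1 and Gpt2 also rose with it. Gpx4, whose product uses glutathione to reduce lipid peroxides, had 116 ± 18.6 and 131 ± 9.95 FPKM (limma, adjusted p = 0.562).

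**Figure D4:**
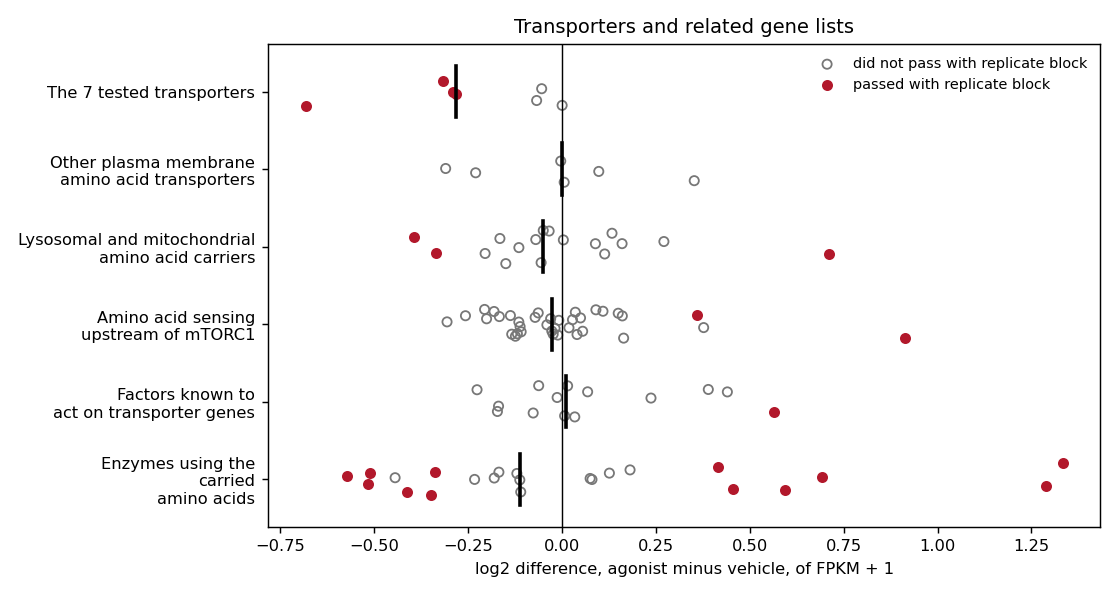
Log2 difference, agonist minus vehicle, of FPKM + 1 for the tested genes of the transporter set and of 5 related lists, 1 point per gene, with vertical bars at the medians; filled points passed limma's test with the replicate block. The transporter set has 4 filled points, all below 0, and the enzymes have 6 on either side.

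The libraries carried the markers of their label. The 8 T cell and Treg markers, Foxp3 among them, summed to 2062 to 2406 FPKM with vehicle and 2581 to 2669 FPKM with the agonist. Tnfrsf18 and Ctla4 differed most, with vehicle and agonist means of 479 and 737 FPKM and of 242 and 380 FPKM. Ctla4 did not pass (limma, adjusted p = 0.0711 in the blocked fit). Foxp3 had means of 132 and 135 FPKM, and Il2ra of 848 and 850 FPKM. Ikzf2 and Tnfrsf18, 2 of these markers, rose with the block, as did 498 of all 12186 tested genes. Markers of cytotoxic T and NK cells summed to 4.75 to 6.32 and 5.64 to 7.44 FPKM, and of B cells to 5.76 to 6.07 and 3.76 to 6.26 FPKM. Cd8b1 (means of 4.53 and 5.02 FPKM) and Cd79b (4.90 and 3.73 FPKM) made up most of these sums. Markers of erythroid cells and platelets summed to 1.47 to 5.76 and 0.601 to 2.90 FPKM. Myeloid markers summed to 0.166 to 1.004 and 0.221 to 0.568 FPKM, dendritic markers to 0.105 to 0.581 and 0.136 to 0.941 FPKM, and S100a8, S100a9 and Siglech were listed at 0 in every library. Hba-a1, an alpha globin gene, fell with the block, as did the 4 transporters, and its part in their values was not tested. Aligned sequence, derived from the ratio of coverage to FPKM, was 4.32 to 5.65 gigabases per library, largest for vehicle replicate 2, and mitochondrially encoded genes held 4.51 to 6.80% of the reference FPKM.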

How the data were processed

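RNA was sequenced from 6 libraries, 3 per group. Per the submitters' processing notes, Trim Galore and HISAT2 were used on mm10, without versions. The authors deposited 1 table per library with FPKM and read coverage (a signal per base), per the file headers. The abundance program, annotation release and strand setting were details not given in the sources used here. Rows of the same gene identifier were summed, the assembled loci, which list the same reads again, were left out, and the deposited TPM column, which sums to 1901346 to 1930242, was not used.

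A pseudocount of 1 was added to FPKM before taking log2, which understates fold changes of low genes. Tested were the 12186 reference genes that reached 1 FPKM in at least 3 libraries. Agonist and vehicle were compared by limma 3.58.1 under R 4.3.3, using an intensity trend and robust variances from statmod 1.5.0. P-values were adjusted by Benjamini-Hochberg over all tested genes, with 0.05 as the threshold to which "rose" and "fell" refer. The fit without the block was tested on simulated independent libraries, with changes larger than those of the transporters. The blocked fit was not tested in this way. Python 3.11.15, pandas 2.3.3, numpy 2.4.6, scipy 1.17.1 and matplotlib 3.10.9 served for the rest. Without fragment counts, precision is the spread between libraries.

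Replicate numbers were taken to pair the libraries if every pair's deviations from the group means correlated above 0.1, a rule applied with earlier blocked results of these data known. The deviations correlated at 0.512, 0.404 and 0.321 for equal numbers and at -0.353 to 0.00197 for unequal ones. Deviations cancel within a group, so positive values for equal numbers push those for unequal numbers towards negative. The low values for unequal numbers are thus no separate support for the pairing. The block is therefore printed beside results it changes. The labels do not say what the number stands for.

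The members, gene lists and markers were chosen from general knowledge with earlier results of these data known. Named from each list were genes passing with or without the block (at most 4, by size of change) and up to 3 of the most abundant, and the 5 genes most correlated with Slc7a5. The remaining enzymes that passed with the block are named without their levels. Exact permutation tests were run for 11 sums, shares and ratios over members, none of which could go below p = 0.1, and only that of the Slc3a2 ratio is printed. Alternatives covered scaling, coverage in place of FPKM, pseudocount, filter, variance model, the block and each library left out.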

Additional observations from a re-analysis of the deposited data

Results flagged for a closer look

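Assembled loci on the strand opposite to a transporter gene were not used in any comparison. The tables list such a locus opposite to Slc1a5 at 1.44 FPKM in agonist replicate 2 and opposite to Slc7a1 at 0.347 FPKM in agonist replicate 3, and none opposite to these genes in a vehicle library. Each occurs in 1 library, and the cause was not tested.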

How the results depend on the processing

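Over all genes limma called 48 genes. It called 75 with upper quartile scaling, 89 with coverage in place of FPKM, 2 without a filter, 1279 with the replicate block, 997 with the block and quantile normalization, and 0 to 133 when 1 library was left out. Chosen after seeing the data were the block with coverage (2010 calls) and the block without pair 1, 2 or 3 (241, 0 and 1 calls). Of the transporters 0 were called, and this count was 4 with the block, also with quantile normalization or with coverage, and 1 without pair 1. With the block and quantile normalization 3 of the 4 lay just under the threshold. Their adjusted p was 0.0485 for Slc1a5, 0.0466 for Slc7a1 and 0.0492 for Slc7a6, against 0.01245 for Slc7a5 (limma). The ratio of Slc3a2 to its light chains kept its direction, with differences of 0.168 to 0.783 when 1 library was left out, against 0.574 with all and 0.0903 by coverage. The 4 lower genes kept their direction in all 20 alternatives, with log2 fold changes of -0.89 to -0.50 for Slc7a5, -0.36 to -0.25 for Slc1a5, -0.34 to -0.22 for Slc7a6 and -0.39 to -0.19 for Slc7a1. Over the same alternatives their adjusted p ran from 0.00153 to 0.632, 0.0157 to 0.533, 0.0218 to 0.574 and 0.0258 to 0.751. A change of filter or of variance model, or the block alone, leaves a fold change as it was. Those alternatives therefore do not test its direction. With 1 library left out, Slc3a2 ran from -0.2285 to 0.0495 and changed sign without agonist replicate 3, and Slc38a2 ran from -0.0384 to 0.0397 and changed sign without replicate 1 or 3 of vehicle or replicate 1 of agonist. In the block, Slc3a2 changed sign without pair 3 (0.026), and Slc38a2 without pair 1 (-0.0509) and pair 3 (-0.0238). The cause of these changes was not tested. The tables hold no fragment counts, so the counting error of the Slc1a4 and Slc7a11 levels cannot be given.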
